A study of Mus musculus with 6 samples.

Results

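Tns4 and the integrin subunits of the mouse colonic epithelium were followed across 6 Affymetrix arrays, 3 of re-fed mice and 3 of re-fed mice given antibiotics. The set comprised 10 genes: the tensin gene Tns4, 5 integrin alpha subunits (Itga5, Itgav, Itga2, Itga3 and Itga6), 3 beta subunits (Itgb1, Itgb4 and Itgb6) and the focal adhesion kinase gene Ptk2. Each gene was read from the brightest probe set naming it alone, by the mean over the 6 arrays. Of the 10, 9 had such a probe set, 1 each, out of 19938 genes with one. All 9 exceeded the minimum signal set for testing (a log2 mean of 5.81, called the floor below) and were among the 12071 genes tested. Ptk2 was not analysed here, because no probe set names it in the platform table used. Its genes were chosen by name, with the antibiotics differences of these same arrays already known, and Tns4 had passed in that comparison. The differences of the 9 genes are therefore a description, without a test of their own.

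Both groups were male wild-type BALB/c mice, 6 weeks old, that fasted for 36 h and were then fed again for 24 h. During re-feeding the antibiotics group was treated with antibiotics, whose names and dose the sources used here do not give, and the re-fed group was left untreated. Epithelial cells of the colon were sorted as EpCAM-positive and CD45-negative, and each array holds labelled RNA of 1 sample. The samples are called biological replicates, and how many mice each holds is not stated, so the spread between samples may hold less than the spread between mice.

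The sorted cell type was checked first. Epcam stood at 12.16 ± 0.11 without and 12.12 ± 0.065 with antibiotics (log2 expression, mean ± SD, n = 3 arrays per group here and below), and Ptprc, which encodes CD45, lay below the floor at 5.43 ± 0.11 and 5.40 ± 0.12. Of the markers with a probe set, 9 of 10 for T cells and intraepithelial lymphocytes, 7 of 9 for myeloid cells, 4 of 6 for B and plasma cells and 7 of 15 for stroma, muscle and endothelium lay below the floor, where 39.5% of all 19938 genes lay (7867). The count for stroma, muscle and endothelium is near that share. The array values may bear traces of separate normalisation runs. Antibiotics replicate 3 held 10829 distinct values, against 34568 to 34596 on the other arrays. Its counts of shared values are thus not comparable with theirs. Any pair among 4 arrays (replicates 2 and 3 without and 1 and 2 with antibiotics) had 372 to 435 exact values in common, whereas re-fed replicate 1 shared at most 198 and antibiotics replicate 3 at most 67 with any other array. With its fewer distinct values, the count of antibiotics replicate 3 cannot show whether that array was normalised with the others. The 4 arrays are called the common run, a grouping inferred from the values. The difference within them is given beside that over 6 arrays for each of the 9 genes. It is also given for some of the other genes, and its absence elsewhere does not mean that the difference was unchanged.

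Integrins are paired alpha and beta receptors that hold epithelial cells on the basement membrane. In the gut epithelium the alpha2, alpha3 and alpha6 chains serve adhesion to collagen and laminin, while alpha5 and alphav chains recognise fibronectin and other ligands that carry the RGD motif. Tensins bind the cytoplasmic tails of beta subunits, and most of them also bind actin. Tns4, also called Cten, lacks the actin-binding region of its relatives, and in human mammary cells it is known to take the place of Tns3 on beta1 integrin after EGF. Itga5 pairs with Itgb1 alone.

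Because alpha5beta1 is a single receptor built from Itga5 and Itgb1, the promoters of both genes are shown. They were taken from RefSeq (mouse GRCm38.p6) and run from 250 bases before to 50 bases after the annotated start, 5′ to 3′ on the gene's strand. That of Itga5 is chr15:103366742-103367041 (minus strand) and that of Itgb1 is chr8:128685404-128685703 (plus strand). Capitals mark matches, on either strand, to the AP-1 site TGANTCA, the TEAD site GGAATG, the GC box GGGCGG and the serum response element.
Itga5: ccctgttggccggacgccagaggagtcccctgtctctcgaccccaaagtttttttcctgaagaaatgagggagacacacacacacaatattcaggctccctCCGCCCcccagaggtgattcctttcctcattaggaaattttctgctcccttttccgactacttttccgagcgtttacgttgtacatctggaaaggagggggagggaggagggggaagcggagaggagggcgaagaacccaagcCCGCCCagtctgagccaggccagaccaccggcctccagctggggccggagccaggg
Itgb1: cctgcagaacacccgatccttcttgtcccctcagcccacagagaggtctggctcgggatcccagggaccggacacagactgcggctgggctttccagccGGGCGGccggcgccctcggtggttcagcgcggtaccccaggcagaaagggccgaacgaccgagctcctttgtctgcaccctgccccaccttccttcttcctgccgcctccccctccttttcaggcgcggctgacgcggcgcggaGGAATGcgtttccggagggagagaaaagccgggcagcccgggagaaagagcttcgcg

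The Itga5 window held 2 GC boxes and no match to the other 3 motifs. The Itgb1 window held 1 GC box and 1 TEAD site, and no match to the other 2. A GC box occurred in 35.7% of all 32851 promoter windows of this length in the table, a TEAD site in 14.7%, an AP-1 site in 7.81% and a serum response element in 1.63%. None of the marked matches overlapped another. The table held windows for 6 of the 10 genes (Itga5, Itgav, Itga2, Itga3, Itgb1 and Itgb6), 8 windows in all. A match is a run of letters and not a measured site.

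Tns4 was lower on every array of the antibiotics group. Its log2 expression on the re-fed arrays, in the order of replicates 1 to 3, was 11.29, 11.17 and 11.27, and on the antibiotics arrays it was 10.11, 10.44 and 10.39 (the same order is kept below). The highest antibiotics array lay below the lowest re-fed array, and the re-fed arrays lay close together (SD 0.063, against 0.18 with antibiotics). The means of 11.24 and 10.31 differed by -0.93 (antibiotics minus re-fed, moderated SE 0.12), a 1.91-fold lower level. Within the common run the difference was -0.95 (SE 0.13).

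Itga5, the alpha chain of the fibronectin receptor, was also lower on every array of the antibiotics group. It stood at 8.33, 8.31 and 8.57 on the re-fed arrays and at 7.64, 7.66 and 7.41 on the antibiotics arrays. The groups did not overlap, and antibiotics replicate 3, outside the common run, was the lowest of the 6 arrays. The means of 8.40 ± 0.14 and 7.57 ± 0.14 differed by -0.83 (SE 0.12), a 1.78-fold lower level, and by -0.79 (SE 0.12) within the common run. In bulk RNA of this kind, fewer cells that express a gene and less RNA per cell cannot be told apart.

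**Figure D1:**
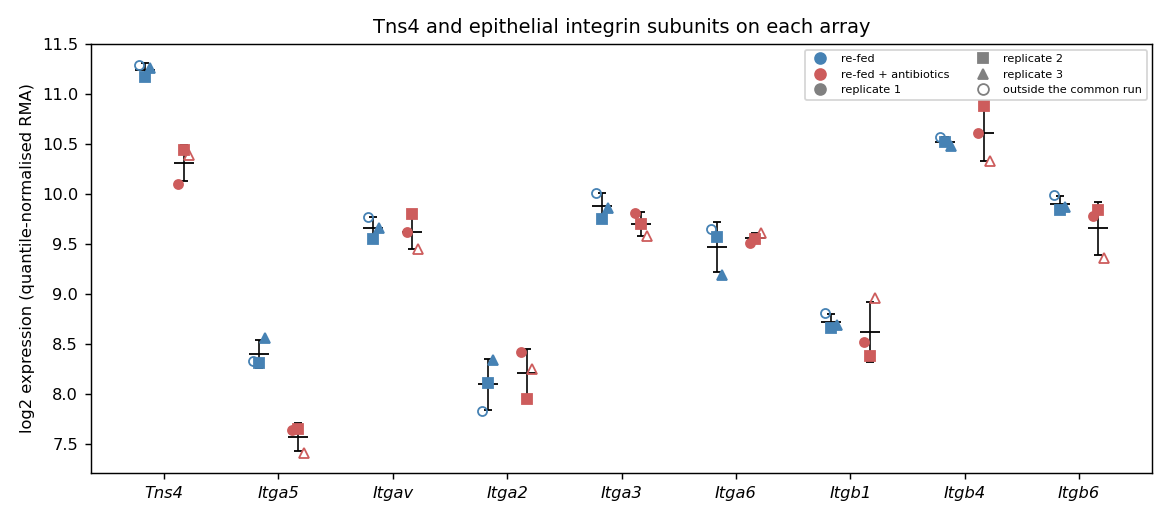
Log2 expression (vertical axis, quantile-normalised RMA values) of Tns4 and 8 integrin genes on each of the 6 arrays, with the mean and SD of each group of 3 in black and the 2 arrays outside the common run as open symbols. For Tns4 and Itga5 the 3 antibiotics arrays lie below the 3 re-fed arrays, and for the other 7 genes the groups overlap. Heights of different genes are not comparable, since each has its own probes.

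In the limma fit across all genes, Tns4 was the 1 gene of the 9 that passed at a Benjamini-Hochberg adjusted p under 0.05, where 0.058% of the 12071 genes tested passed in either direction and 0.0497% passed as lower. Itga5 did not pass there (limma adjusted p = 0.0584, against 0.0441 for Tns4). Within the common run both passed (limma adjusted p = 0.0371 for Tns4 and 0.0467 for Itga5). In that run 0.447% of all genes passed in either direction and 0.34% as lower. All of these adjusted p lie close to the threshold, so passing separates the genes and the fits only narrowly. The groups did not overlap for 2 of the 9 genes, Tns4 and Itga5, both lower, and for 19.6% of all genes tested in either direction, 10.7% as lower. Since the set was chosen with this comparison known, nothing is read from these counts. Without any 1 array, 0 of the 9 genes passed, while Tns4 differed by -0.996 to -0.829 and Itga5 by -0.88 to -0.75. The value of Tns4 nearest to 0 came without antibiotics replicate 1, and that of Itga5 without re-fed replicate 3. The difference ranked 30 from the lowest of all genes for Tns4 and 48 for Itga5.

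**Figure D2:**
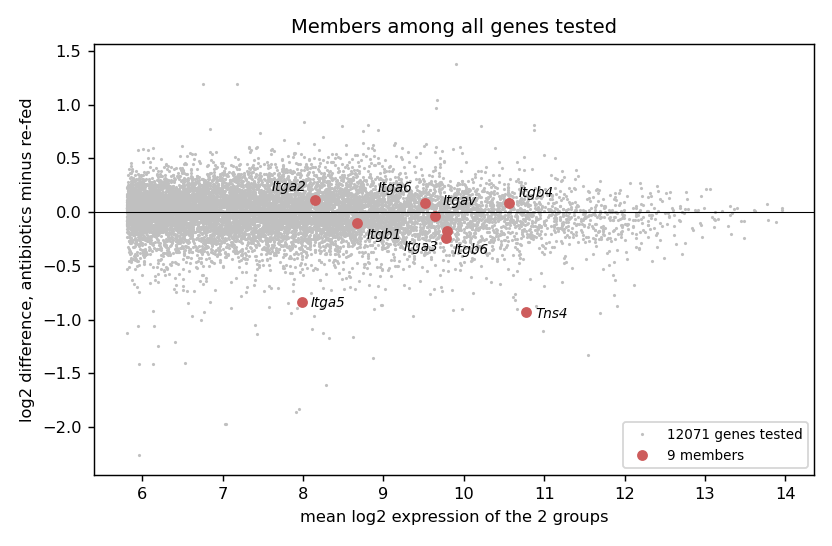
Log2 difference, antibiotics minus re-fed (vertical axis), against the mean log2 expression of both groups (horizontal axis) for the 12071 genes tested, with the 9 members in red. Tns4 (-0.93) and Itga5 (-0.83) lie under the band of most genes, and the other 7 lie between -0.24 and 0.11.

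Among the remaining alpha chains the groups overlapped. Itgav, the chain of several RGD-binding integrins, stood at 9.77, 9.55 and 9.67 without and 9.62, 9.81 and 9.45 with antibiotics. The antibiotics arrays lay on both sides of the re-fed ones, and the difference was -0.037 (SE 0.12, 95% interval -0.31 to 0.24), or 0.10 within the common run.

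Itga2, the chain of the collagen receptor alpha2beta1, stood at 7.83, 8.12 and 8.34 without and 8.42, 7.95 and 8.25 with antibiotics. Its arrays spread more within each group (SD 0.26 and 0.24) than the means differed, 0.11 (SE 0.16, interval -0.25 to 0.47), and the sign turned within the common run (-0.040) and with the deposited scaling (-0.075).

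The laminin-binding chains were Itga3 and Itga6. Itga3, which pairs with Itgb1, stood at 10.02, 9.76 and 9.87 without and 9.82, 9.71 and 9.58 with antibiotics, a difference of -0.18 (SE 0.11, interval -0.43 to 0.079). Antibiotics replicate 3 was its lowest array, and within the common run the difference was -0.050. Itga6, which pairs with Itgb4 in hemidesmosomes, stood at 9.66, 9.57 and 9.19 without and 9.51, 9.55 and 9.61 with antibiotics. Re-fed replicate 3 stood below the other 5 arrays. The difference was 0.089 (SE 0.13, interval -0.21 to 0.39), 0.15 within the common run, -0.052 without re-fed replicate 3 and -0.096 with the deposited scaling.

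The beta chains also overlapped between the groups, and antibiotics replicate 3 stood at an extreme of the 6 arrays for each of them. Itgb1, the partner of most alpha chains here, stood at 8.82, 8.66 and 8.69 without and 8.53, 8.38 and 8.96 with antibiotics. Replicates 1 and 2 of the antibiotics group were its lowest arrays and replicate 3 its highest, so the difference of -0.10 (SE 0.15, interval -0.44 to 0.24) became -0.22 within the common run.

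Itgb4, the hemidesmosomal beta chain, showed the mirrored order, with 10.57, 10.52 and 10.48 without and 10.61, 10.89 and 10.34 with antibiotics. Replicates 1 and 2 were the highest arrays and replicate 3 the lowest. The difference was 0.087 (SE 0.14, interval -0.23 to 0.40), 0.25 within the common run and -0.098 with the deposited scaling.

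Itgb6, the epithelial chain of the alphavbeta6 integrin, which activates latent TGF-beta, stood at 9.99, 9.84 and 9.88 without and 9.78, 9.84 and 9.36 with antibiotics. The difference of -0.24 (SE 0.14, interval -0.56 to 0.070) shrank to -0.046 within the common run, where antibiotics replicate 3 is absent. The intervals of these 7 genes reach as low as -0.56 (Itgb6) and as high as 0.47 (Itga2), so they do not show that the genes were equal in the groups.

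**Figure D3:**
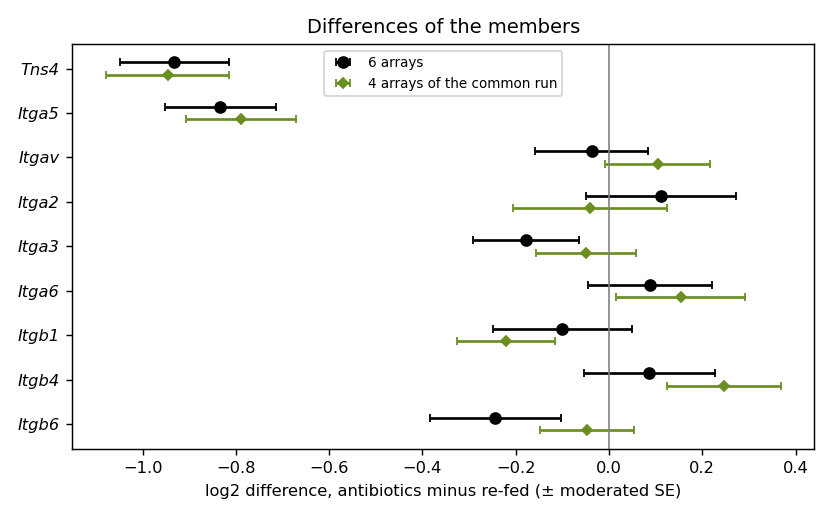
Log2 difference, antibiotics minus re-fed (horizontal axis), with its moderated SE for each of the 9 genes, over 6 arrays (black circles) and over the 4 arrays of the common run (green diamonds). Tns4 and Itga5 stand near -0.9 and -0.8 in both, and the other 7 lie within 0.25 of 0.

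The receptor pairs were compared as the log2 ratio of alpha to beta chain within each array, set to 0 at the re-fed mean, which shows unequal change and not which chain changed. The Itga5 to Itgb1 ratio was -0.17, -0.033 and 0.20 on the re-fed arrays and -0.56, -0.41 and -1.23 on the antibiotics arrays. Every antibiotics array lay below the re-fed ones, by a mean of -0.73 (SD 0.44, n = 3) and by -0.57 within the common run. The -1.23 of antibiotics replicate 3 combines the lowest Itga5 and the highest Itgb1 of the 6 arrays.

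For the pairs of Itga2 and Itga3 with Itgb1 and of Itga6 with Itgb4, the groups overlapped, with mean shifts of 0.21, -0.078 and 0.0018. The Itgav to Itgb6 ratio was 0.016, -0.046 and 0.029 on the re-fed arrays and 0.084, 0.20 and 0.33 on the antibiotics arrays. These did not overlap, with a mean shift of 0.21 (SD 0.12, n = 3) and of 0.15 within the common run. For the ratios of Itga6 and of Itgav to Itgb1 the groups overlapped, with mean shifts of 0.19 and 0.063. Among single genes tested, 19.6% did not overlap between the groups, and no such share was computed for ratios. The ratios were formed from genes whose values were known and carry no test.

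**Figure D4:**
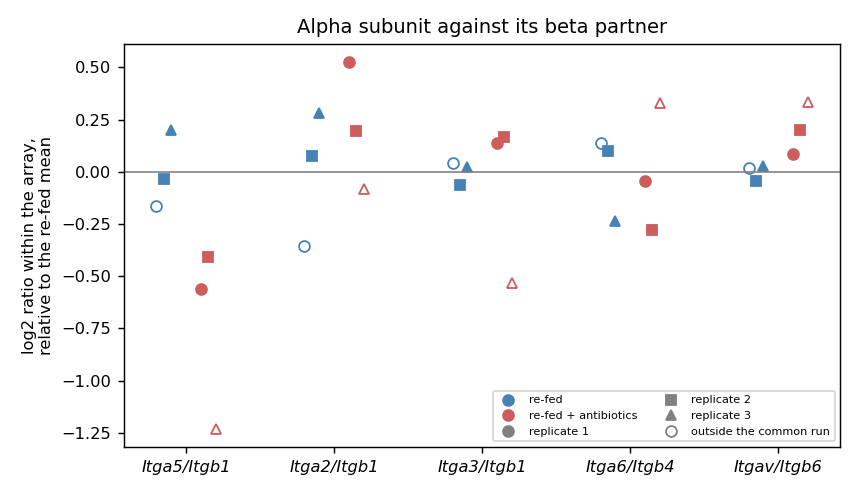
Log2 ratio of an alpha subunit to its beta partner within each array (vertical axis), relative to the mean of the 3 re-fed arrays, for 5 receptor pairs, with open symbols for the 2 arrays outside the common run. Itga5 to Itgb1 lies lower on the 3 antibiotics arrays (-0.56, -0.41 and -1.23), and Itgav to Itgb6 lies higher (0.084, 0.20 and 0.33).

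Genes most like Tns4 over the 6 arrays, by Pearson correlation of log2 expression among the genes tested, were Ccdc84, Helz2, Plek2, Strip2 and Grk5 (r from 0.991 to 0.994). Plek2 encodes a pleckstrin, Strip2 a protein of the STRIPAK phosphatase complex and Grk5 a kinase of G-protein-coupled receptors. They differed between the groups by -0.13 (Ccdc84), -0.44 (Helz2), -0.53 (Plek2), -0.55 (Strip2) and -0.55 (Grk5). Itga5 was 166 in that order (r = 0.93), and its deviations from the group means correlated with those of Tns4 by -0.13.

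For Itga5 the genes most alike were Hdac1, Gch1, Tstd3, Epn3 and Cpne2 (r from 0.993 to 0.996). Hdac1 is a histone deacetylase, Gch1 makes the first step towards tetrahydrobiopterin, Epn3 is an endocytic epsin and Cpne2 a copine that binds phospholipids. Their differences were -0.62, -0.71, -0.75, -0.45 and -0.87 in that order. Such likeness mostly follows the difference between the groups and shares the 6 arrays.

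When each group's mean was removed, other genes led. They were Otud5, Dmtf1, Ubac1, Cnst and Bptf for Tns4, and Nhej1, 9330133O14Rik, Krt79, Ankrd2 and Gphn for Itga5. With 6 arrays and 12071 genes, close likeness is easily met, and these names are a description.

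The other genes of integrin adhesion were read from 7 lists written from general knowledge of the pathway. They held 105 different genes tested, beside the 9. In limma's fit across all genes 0 of the 105 passed, and 11 had an unadjusted p under 0.05, where 12.6% of all genes had one. The median difference over all genes tested was 0.0033 (0.012 within the common run). It was -0.12 with the deposited scaling, so values at that scaling are to be read against that shift.

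**Figure D5:**
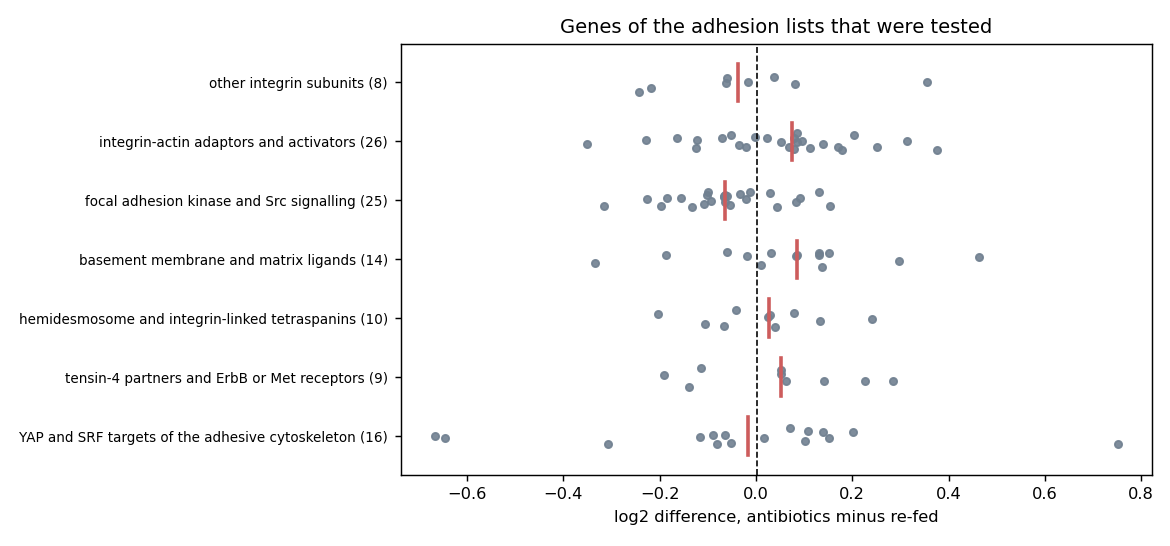
Log2 difference, antibiotics minus re-fed (horizontal axis), of each tested gene in 7 adhesion lists (points, number of genes in brackets), with the list median as a red bar and the median of all genes tested as a dashed line. The list medians lie between -0.064 and 0.085, and Tpm2, Cnn2 and Ccn1 of the bottom list lie farthest from 0.

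Of 18 other integrin subunits, each with a probe set of its own, 8 were above the floor and none of them passed or had an unadjusted p under 0.05 in limma's fit. Their median difference was -0.038, and they ran from -0.24 to 0.36. Itga7, a laminin-binding chain best known from muscle, stood at 6.65 ± 0.11 in the re-fed and 7.00 ± 0.40 in the antibiotics group (0.36, SE 0.18, adjusted p = 0.457). Itgb5, a partner of Itgav, stood at 8.87 ± 0.077 and 8.65 ± 0.17 (-0.22, SE 0.12, adjusted p = 0.467), and differed by -0.078 within the common run. Itgad, a leukocyte chain, stood at 6.98, 6.89 and 7.01 on the re-fed and 6.92, 6.92 and 6.31 on the antibiotics arrays. Only antibiotics replicate 3 stood apart, and the difference of -0.24 (SE 0.16) was -0.029 within the common run. The leukocyte chain Itgb7 differed by -0.060 (SE 0.10), and by -0.0042 there. The 10 below the floor, which include the leukocyte chains Itgal, Itgam, Itgax, Itgae and Itgb2, differed by -0.16 to 0.43.

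Adaptors and activators that join integrins to actin had 26 genes tested, 16 above and 10 below 0, with a median of 0.075 (0.037 within the common run). None passed, and 3 had an unadjusted p under 0.05. Tns2, a relative of Tns4 that is not restricted to epithelia, stood at 8.58, 8.52 and 8.64 without and 8.18, 8.09 and 8.42 with antibiotics. The groups did not overlap, and the difference was -0.35 (SE 0.12, adjusted p = 0.278 in limma's fit).

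The other tensins, named after their values were seen, were Tns1 (0.38, SE 0.19, and 0.58 within the common run) and Tns3 (0.080, SE 0.11, and 0.15), neither of which passed. Fermt1, the epithelial kindlin that activates beta chains, stood at 10.05 ± 0.16 and 10.37 ± 0.21 (0.31, SE 0.14, adjusted p = 0.384). The small GTPase Rap1b, which drives talin to integrins, differed by -0.23 (SE 0.098) and its exchange factor Rapgef1 by 0.25 (SE 0.12).

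Signalling genes around focal adhesion kinase and Src had 25 genes tested, 19 below and 6 above 0, with a median of -0.064 (-0.047 within the common run). None passed, and 0 had an unadjusted p under 0.05. The adaptors Nck2 (-0.23, SE 0.11), Grb2 (-0.32, SE 0.17) and the exchange factor Sos1 (-0.20, SE 0.11) had the smallest unadjusted p, with the kinase Pak2 (-0.16, SE 0.11). Grb2 stood at 7.22 on antibiotics replicate 3 against at least 7.83 on each of the other 5 arrays, and differed by -0.11 within the common run, where Nck2 differed by -0.12. Ptk2b, the paralog of Ptk2, was named after its values were seen and differed by 0.029 (SE 0.17), and by 0.13 within the common run.

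Basement membrane and matrix ligands had 14 genes tested, 10 above and 4 below 0, with a median of 0.085 (0.15 within the common run). None passed, and 3 had an unadjusted p under 0.05. Lama5 stood at 6.70, 6.59 and 6.71 without and 6.30, 6.33 and 6.39 with antibiotics, a difference of -0.33 (SE 0.098, adjusted p = 0.243 in limma's fit). Lama3 went the other way, from 9.66, 9.50 and 9.38 to 9.86, 10.29 and 9.79 (0.46, SE 0.15, adjusted p = 0.266). Both encode laminin alpha chains, the ligands of Itga3 and Itga6, and for both the groups did not overlap. The heparan sulfate proteoglycan Hspg2, or perlecan, differed by 0.30 (SE 0.096, adjusted p = 0.273) and the collagen chain Col4a4 by 0.15 (SE 0.11).

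Hemidesmosome genes and integrin-linked tetraspanins had 10 genes tested, 6 above and 4 below 0, with a median of 0.027. None passed, and 0 had an unadjusted p under 0.05. The tetraspanin Cd9 differed by -0.20 (SE 0.11), the plakin Dst by 0.24 (SE 0.15), ladinin (Lad1) by -0.11 (SE 0.099) and the tetraspanin Cd81 by 0.13 (SE 0.15). Within the common run Cd9 differed by -0.10 and Cd81 by 0.025.

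The next list held partners of Tns4, known mostly from human cancer cells, and also ErbB and Met receptors and other related genes. Of these, 9 genes were tested, 6 above and 3 below 0, with a median of 0.053. None passed, and 1 had an unadjusted p under 0.05. That was Egfr, which stood at 8.55, 8.72 and 8.66 on the re-fed and 8.80, 9.15 and 8.83 on the antibiotics arrays (0.29, SE 0.12, adjusted p = 0.379 in limma's fit). The groups did not overlap for Egfr, and its difference had the opposite sign to that of Tns4. Met differed by -0.19 (SE 0.11), Erbb2 by 0.23 (SE 0.14) and the ubiquitin ligase gene Cblb by 0.14 (SE 0.10).

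Targets of YAP and of serum response factor in the adhesive cytoskeleton, with some regulators such as Tead1 and Srf, had 16 genes tested. Of these, 8 lay above and 8 below 0, with a median of -0.017. None passed over 6 arrays, and 4 had an unadjusted p under 0.05. Tpm2, a tropomyosin, stood at 7.00, 7.14 and 7.13 on the re-fed and 6.46, 6.71 and 6.09 on the antibiotics arrays (-0.67, SE 0.15, adjusted p = 0.156 in limma's fit). Cnn2, a calponin, stood at 6.68, 7.30 and 7.38 on the re-fed and 6.29, 6.42 and 6.71 on the antibiotics arrays (-0.65, SE 0.19, adjusted p = 0.243). It passed within the common run (-0.98, adjusted p = 0.0248), where re-fed replicate 1, its lowest re-fed array, is absent. Ccn1, a matrix protein that binds integrins and a known YAP target, stood at 8.76, 8.72 and 7.63 on the re-fed and 9.22, 9.13 and 9.01 on the antibiotics arrays (0.75, SE 0.26, adjusted p = 0.296). Re-fed replicate 3 stood below the other 5 arrays. The difference was 0.38 without it and 1.003 within the common run, which includes it. Tead1, the DNA-binding partner of YAP, differed by -0.31 (SE 0.11).

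Some marker lists moved with the groups that separate Tns4 and Itga5. The summed signal of 11 markers of the crypt base and proliferation was 11.18 to 11.37 (log2) on the re-fed arrays and 11.40 to 11.95 on the antibiotics arrays, with 10 of 11 genes above 0 and Lgr5 and Ascl2 below the floor. The 11.95 was that of antibiotics replicate 3, outside the common run, and replicates 1 and 2 stood at 11.53 and 11.40. The summed signal of 9 pan-epithelial markers was 15.70 to 15.75 and 15.55 to 15.66, with 8 of 9 below 0. Krt18 (-0.59) and Krt20 (-0.46) lay farthest below 0, and the others ran from -0.17 (Vil1) to 0.081 (Cldn3), with Epcam at -0.036. The 11 surface colonocyte markers, Krt20 again among them, overlapped, at 16.14 to 16.27 and 16.03 to 16.20, with 4 above and 7 below 0. In that list Emp1 (-0.88) and Slc37a2 (-0.65) lay farthest below 0 and Guca2b (0.52) farthest above. A summed signal follows mostly the brightest markers, so it can hide such shifts. T cell markers summed to 8.59 to 8.74 and 8.56 to 8.60, B and plasma cell markers to 10.38 to 10.53 and 10.02 to 10.33, myeloid markers to 9.02 to 9.35 and 9.18 to 9.41, and markers of stroma, muscle and endothelium to 9.91 to 10.09 and 9.98 to 10.11. The sums of the B and plasma cell list did not overlap, but 4 of its 6 markers were above 0 and 2 below. Its brightest marker, Sdc1, which epithelial cells also express, had means of 10.25 and 9.95. No marker passed over all genes. The part of any of these in the values of Tns4 and Itga5 was not tested.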

How the data were processed

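The authors deposited 1 table of log2 expression values, made with RMA per the submitters' processing notes; the sources used here give neither version nor annotation. Labelled RNA was prepared from 6 µg of total RNA, per the labels' protocols. Array medians differed (5.63 to 6.17), so the deposited values of 23410 probe sets with a gene were quantile-normalised. Of 35557 probe sets, 21789 named exactly 1 gene, 1621 several, and 12147 are unnamed here. Genes were represented by their highest probe set and tested from the 40th percentile (5.81) upwards. limma 3.58.1 in R 4.3.3 (lmFit, eBayes, two-sided, Benjamini-Hochberg over 12071 genes, threshold 0.05) compared 3 with 3 arrays without a block. The fit was also tried on simulated data with independent errors, which hold no effects shared by an array or a run. The number of arrays limits the precision. Arrays were taken as 1 run where each shared at least 300 exact values. Members and lists were chosen with earlier results of these data known. Named list genes were those with the 4 smallest unadjusted p per list. Likeness named 5 genes per measure. Alternatives were other scalings, filters, weights, priors, probe sets, the replicate block, the common run and leaving out each array. The deposited scaling within the common run was added after seeing the data.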

Additional observations from a re-analysis of the deposited data

How the results depend on the processing

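Over the 16 alternatives, Tns4 (-1.10 to -0.83) and Itga5 (-0.998 to -0.751) kept their direction in every one, and so did Itga3 and Itgb6. The sign turned in 5 for Itgav, 4 for Itga2, 2 each for Itga6 and Itgb4 and 1 for Itgb1. Of all genes, 7 passed over 6 arrays, and 45 with the deposited scaling, 2 with no filter on dim genes, 43 with the stricter filter or a trended prior, 1169 with array weights, 54 in the common run, 63 there with the deposited scaling, and 0 to 11 without 1 array. In the fit with 0 genes, without antibiotics replicate 1, limma gave 1040 at an unadjusted p under 0.05. Of the 9 members, 1 passed, and 2 with the stricter filter, array weights, the trended prior or the common run under either scaling, and 0 with no filter (Tns4 and Itga5 at an unadjusted p under 0.05 in each) or without any 1 array (0 to 0). Of the 105 list genes 0 passed, and 9 with array weights and 1, Cnn2, in the common run under either scaling. The cause of these shifts was not tested. The number of genes adjusted over was larger with no filter (19938) and smaller with the stricter one (7884). limma's variance prior was also estimated anew on each of these sets of genes.

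With the replicate number as a replicate block, 7 genes and 0 members passed (Tns4 -0.93, Itga5 -0.83, unchanged by construction). Same-numbered arrays correlated by 0.021, -0.034 and -0.22 in their deviations from the group means, and differently numbered ones by -0.17 to 0.24. With 3 arrays per group these values cannot settle whether the numbers pair samples, and the labels do not say.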
